A study of Mus musculus with 768 samples.

Results

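A set of 10 genes of membrane trafficking in which mutations cause demyelinating or intermediate forms of Charcot-Marie-Tooth disease (CMT), an inherited neuropathy, was followed across the Schwann cells (SCs) of the adult mouse sciatic nerve. The 10 genes were Sh3tc2, Litaf, Ndrg1, Fgd4, Mtmr2, Sbf1, Sbf2, Fig4, Gdap1 and Dnm2. They were chosen as known causes of the disease and not by a rule on their levels, though with earlier results of these data known. All 10 were found among the 25700 genes of the count table. The libraries came from mice at postnatal day 60 that carried a Cre transgene of the SC lineage, ReYFP Tg/+ and βAct-DsRed Tg/+ on a C57bl/6J background. Cells of that lineage were thereby marked by eYFP, and eYFP-positive cells were sorted singly into wells after enzymatic dissociation. Each of the 2 plates of 384 cells pooled 2 male and 2 female mice and was 1 biological replicate. Every mouse carried the same alleles and none was treated, so the comparison was between kinds of SC within each plate.

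Myelin is a spiral extension of the SC plasma membrane, and it depends on delivery, recycling and breakdown of membrane along the endosomal route. Phosphoinositides, lipids that mark the identity of each membrane compartment, are made and removed by kinases and phosphatases on the way. Remak SCs, the non-myelinating SCs of the nerve, wrap several thin axons without making myelin. Most of the 10 genes have a known place on or beside this route, while that of Gdap1 is at mitochondria. Sh3tc2 is an effector of Rab11 at recycling endosomes, Ndrg1 has been linked to the recycling of membrane receptors, and Litaf is a membrane protein of late endosomes and lysosomes. Mtmr2 is a phosphatase of endosomal phosphoinositides, Sbf1 and Sbf2 are catalytically inactive relatives that bind it, and Fig4 is a phosphoinositide phosphatase that works in a complex with the kinase Pikfyve. Fgd4 is an exchange factor for the small GTPase Cdc42, Dnm2 is a GTPase that cuts the necks of budding vesicles, and Gdap1 sits in the outer mitochondrial membrane and bears on mitochondrial fission.

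The libraries were made with Smart-Seq2, a full-length method without molecular identifiers, so each value is a number of reads, and intervals on shares of cells cover counting error only. On plate 1, 340 of 384 cells, and on plate 2, 334 of 384, had at least 1500 detected genes and were kept, with a median of 158689 and 452483.5 reads. Clusters were named from fixed markers as mSC-like, for myelinating SCs, or nm(R)SC-like, for Remak SCs, which gave 149 and 72 mSC-like cells on plates 1 and 2 and 175 and 246 nm(R)SC-like cells. The remaining 32 cells stayed unnamed because of low reads, with a median of 0.259 of the plate median, and no nm(R)SC-like marker among their leading genes. Their leading genes included those of the cell cycle. The median of their reads was 267800 on plate 1 and 4220 on plate 2. Of the general SC markers, Sox10 was read at 240 to 563 CPM, reads scaled to a common total, in the 4 sums of class and plate, while the summed level of 6 endothelial markers was 0.385 to 37.1 CPM, of 6 markers of pericytes or smooth muscle 4.36 to 54.4 CPM, of 8 immune markers 7.88 to 20.4 CPM and of 5 neuron markers 0.813 to 73.3 CPM. Cdh5, Rgs5, Ptprc and Pdgfra, each a defining marker, were below 1 CPM in every sum, but Kdr (36.8 and 11.8 CPM) and Pdgfrb (45.1 and 19.9 CPM) were read in mSC-like cells of plates 1 and 2, and Csf1r was read at 4.91 to 20.4 CPM in the 4 sums. The 5 perineurial markers summed to 215 to 325 CPM, most of it Itgb4, with Msln at 0 in every sum. The 6 fibroblast markers summed to 1508 and 953 CPM in mSC-like cells of plates 1 and 2 and to 3899 and 1521 CPM in the other class, led in every sum by the collagen gene Col1a2, and none of the 6 was at 0 in either nm(R)SC-like sum. Dcn among them was read at 9.21 and 4.67 CPM in mSC-like cells of plates 1 and 2. In the other class it was read at 49.3 and 24.4 CPM. The 16 genes of the dissociation response, led by Fos, summed to 9377 and 26342 CPM in mSC-like cells of plates 1 and 2 and to 13730 and 15105 CPM in the other class. The part of these lists in the values below was not tested.

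Per length of exon, the 10 genes covered more than 100-fold in level, in an order that was much the same in both classes. Ndrg1 (chromosome 15, 66929318 to 66969640, minus strand, GRCm38) led with levels of 447 ± 39.6 CPM per kb in mSC-like and 182 ± 5.38 in nm(R)SC-like cells (mean ± SD, n = 2 plates, as for all levels per kb). Litaf (chromosome 16, 10959275 to 11066157, minus strand) came next with 76.9 ± 36.2 and 81.6 ± 23.2 CPM per kb in the same order of classes. Mtmr2 (chromosome 9, 13748410 to 13806481, plus strand) followed with 34.2 ± 6.04 and 31.7 ± 2.94 CPM per kb. These 3 genes took the same places in both classes, and the plates of neighbouring genes in that order did not overlap within a class.

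Below them the order differed between the classes. In mSC-like cells the fourth place was held by Sh3tc2 (chromosome 18, 61953075 to 62024402, plus strand) with a level of 17.3 ± 3.21 CPM per kb, ahead of Dnm2 (chromosome 9, 21424908 to 21507759, plus strand) with 10.8 ± 0.299 CPM per kb. In nm(R)SC-like cells Dnm2 stood at 23.3 ± 10.2 CPM per kb, and its plates overlapped those of Mtmr2 above it. Sh3tc2 stood at 4.65 ± 0.0366 CPM per kb there, and its plates overlapped those of Sbf2 below it. Sbf1 (chromosome 15, 89288236 to 89315311, minus strand) had 6.13 ± 6.30 and 3.66 ± 1.56 CPM per kb in the same order, and Sbf2 (chromosome 7, 110308013 to 110614922, minus strand) had 4.57 ± 1.36 and 4.09 ± 1.88 CPM per kb. Fig4 (chromosome 10, 41188172 to 41303260, minus strand) had 2.74 ± 3.57 and 2.34 ± 1.47 CPM per kb, and Fgd4 (chromosome 16, 16416917 to 16600549, minus strand) had 2.27 ± 0.435 and 1.14 ± 0.680 CPM per kb. Sbf1, Sbf2, Fig4 and Fgd4 each overlapped their neighbours among these 4 in both classes, so the order of neighbours was not resolved over 2 plates. Sbf2 lay above Fgd4 without overlap in both classes, and Sbf1 did so in nm(R)SC-like cells only. The lengths are the union of all annotated exons, 17517 bases for Fgd4 and 14783 for Sbf2 against 3282 to 7731 for the other 8 genes, so a long exon that is rarely used lowers the level per kb. Gdap1 (chromosome 1, 17145362 to 17164271, plus strand) was close to 0 in every sum.

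**Figure D1:**
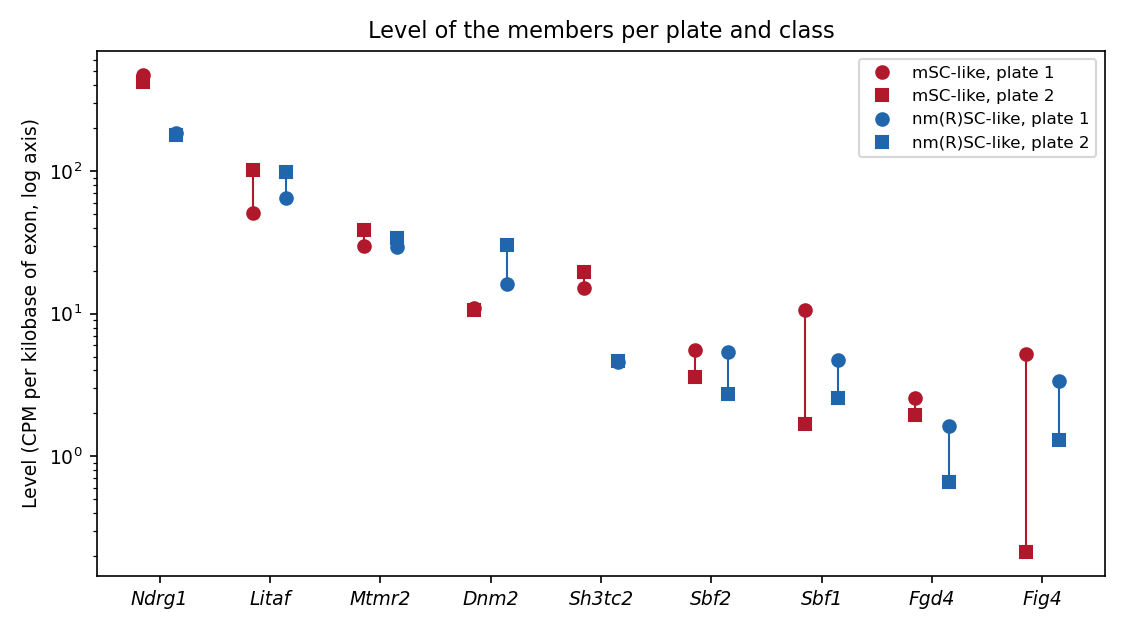
Levels of 9 of the genes, without Gdap1, per length of exon in mSC-like and nm(R)SC-like cells, in CPM per kb on a log axis, with 1 point per plate and a line joining the 2 plates of a class. Ndrg1, Litaf and Mtmr2 held the first 3 places in both classes, and Sh3tc2 lay above Dnm2 in mSC-like cells and below it in the other class.

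Sh3tc2 and Ndrg1 had the clearest difference between the classes, and neither passed the test over all genes. The mSC-like level of Sh3tc2 was 87.2 CPM on plate 1 and 113 CPM on plate 2, and the nm(R)SC-like level was 26.8 and 27.1 CPM. Both mSC-like sums lay above both nm(R)SC-like sums, and the fitted log2 ratio of mSC-like over nm(R)SC-like was 2.05 ± 0.54 (SE, 95% interval 0.82 to 3.28), or 4.14-fold. The unadjusted p of the edgeR quasi-likelihood test was 0.00451 and the p adjusted over all 13198 genes tested was 0.0984. Reads of this gene lay in few cells. On plate 2, 1 nm(R)SC-like cell held 75.3% of the reads of its class, and without that cell the class stood at 6.80 CPM. With the cell of most reads left out of every sum the log2 ratio was 3.0 (edgeR adjusted p = 0.0794), and among cells with at least 2500 genes it was 4.11 (edgeR adjusted p = 0.265).

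The mSC-like level of Ndrg1 was 3136 CPM on plate 1 and 2766 CPM on plate 2, and the nm(R)SC-like level was 1228 and 1178 CPM. The classes did not overlap, and the values of the 2 plates lay close together within each class. The log2 ratio was 1.46 ± 0.39 (SE, 95% interval 0.58 to 2.34), or 2.75-fold, with an edgeR p of 0.00471 unadjusted and 0.101 adjusted. Unlike for Sh3tc2, no single cell held more than 7.66% of the Ndrg1 reads of a sum. The median cell stood at 2783 and 2450 CPM in mSC-like cells of plates 1 and 2, and the median nm(R)SC-like cell at 1127 and 908 CPM, so the difference was seen in the typical cell as well as in the sums. The spread over nm(R)SC-like cells was wide on plate 2, where the lower quartile was 9.89 CPM against 705.5 CPM on plate 1, and where 32 of 246 cells (13%) had no Ndrg1 read. None of the 175 such cells on plate 1 and none of the mSC-like cells of either plate was without one. In classes built without integration of the plates, Ndrg1 passed the limit with a log2 ratio of 1.24 (edgeR adjusted p = 0.0416), where 3.14% of all genes did.

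Of the 9 genes that could be tested, 0 passed an adjusted p of 0.05 with edgeR, against 3.02% of all genes tested, and 2 had an unadjusted p under 0.05, Sh3tc2 and Ndrg1, both higher in mSC-like cells, against 12.5% of all genes in either direction and 5.58% in that one. DESeq2 on the same sums called the same pair, Sh3tc2 at 2.09 (DESeq2 adjusted p = 0.00297) and Ndrg1 at 1.5 (DESeq2 adjusted p = 0.000916), and it called 13.1% of all genes, 5.6% as higher in mSC-like cells. Gdap1 was too low to test. By the sums alone, 3 genes lay above in mSC-like cells without overlap (Fgd4, Ndrg1 and Sh3tc2, Fgd4 only with the 1 cell of most reads on plate 2), where 15.3% of all genes did, and 1 lay above in nm(R)SC-like cells (Dnm2), where 26.4% of all genes did. The median log2 ratio was 0.38 over the 9 genes and −0.13 over all genes. TMM scaling placed each fitted ratio a median of 0.16 above the plain ratio of CPM. With 4 sums and 1 residual degree of freedom the test had little reach over genes drawn at random from those tested. In simulated sums it recovered 9.57% of such genes that differed by 2 on the log2 scale and 48.9% of those that differed by 4. Its reach at the read level of each of the 10 genes was not measured.

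**Figure D2:**
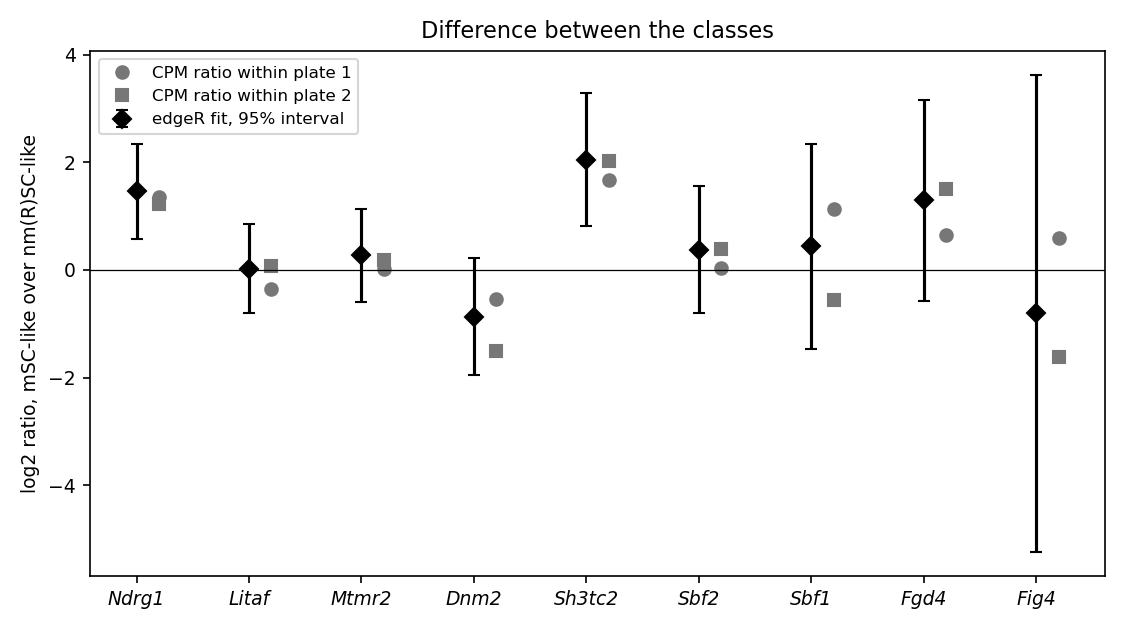
Log2 ratio of mSC-like over nm(R)SC-like for the 9 genes tested, with the edgeR estimate and its 95% interval and the ratio within each plate (pseudocount 1 CPM). The intervals of Sh3tc2 and Ndrg1 lie above 0 before adjustment, and those of the other 7 genes span 0.

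Litaf, Mtmr2 and Sbf2 had fitted ratios between 0.03 and 0.38 on the log2 scale, with intervals on both sides of 0. Litaf was read at 264 CPM (mSC-like) and 336 CPM (nm(R)SC-like) on plate 1, and at 528 and 505.2 CPM on plate 2. The plates differed more than the classes, and the log2 ratio was 0.03 ± 0.36 (SE, 95% interval −0.80 to 0.85, edgeR adjusted p = 0.9995). A stretch of 95 exon bases of Litaf overlaps Snn on the opposite strand, and without a stated strand setting those reads cannot be told apart. Mtmr2, the active phosphatase of its group, was read at 147 and 145 CPM on plate 1 and at 189 and 166 CPM on plate 2. Its log2 ratio was 0.27 ± 0.38 (SE, 95% interval −0.60 to 1.14, edgeR adjusted p = 0.908), and 1 nm(R)SC-like cell of plate 2 held 40.8% of its reads there, without which the sum stood at 98.4 CPM. Sbf2 was read at 81.8 and 80.1 CPM on plate 1 and at 53.3 and 40.8 CPM on plate 2, a log2 ratio of 0.38 ± 0.52 (SE, 95% interval −0.80 to 1.55, edgeR adjusted p = 0.903). A single cell held 56.9% of the nm(R)SC-like Sbf2 reads of plate 1. With the top cell left out of every sum the log2 ratio was 0.73 for Mtmr2 (edgeR adjusted p = 0.593), 1.02 for Sbf2 (edgeR adjusted p = 0.570) and 0.11 for Litaf (edgeR adjusted p = 0.975).

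The values of Sbf1 and Fig4 went opposite ways on the 2 plates. Sbf1 was read at 72.3 CPM (mSC-like) and 32.5 CPM (nm(R)SC-like) on plate 1, and at 11.5 and 17.4 CPM on plate 2. A single cell held 75.3% and 74.0% of the mSC-like reads of plates 1 and 2, and without it the mSC-like sums were 18.8 and 3.16 CPM, below nm(R)SC-like cells on both plates. With the top cell left out of every sum the fitted log2 ratio moved from 0.44 ± 0.84 (SE, edgeR adjusted p = 0.951) to −1.14. Fig4 was read at 17.3 and 11.1 CPM on plate 1 and at 0.702 and 4.25 CPM on plate 2, the last pair from 38 and 652 reads. Its log2 ratio was −0.80 ± 1.95 (SE, 95% interval −5.24 to 3.63, edgeR adjusted p = 0.972), an interval that spans both directions, and 60.5% and 56.0% of its plate 2 reads lay in 1 mSC-like and 1 nm(R)SC-like cell.

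Fgd4 was read at 45.2 CPM (mSC-like) and 28.4 CPM (nm(R)SC-like) on plate 1, and at 34.4 and 11.5 CPM on plate 2. The classes did not overlap, and the log2 ratio was 1.29 ± 0.82 (SE, 95% interval −0.58 to 3.16, edgeR adjusted p = 0.620). On plate 2, 1 cell held 40.4% of the mSC-like Fgd4 reads, and without it the sum was 21.1 CPM, below the nm(R)SC-like sum of plate 1, so that the classes overlapped. Dnm2 stood the other way, at 58.7 and 85.6 CPM on plate 1 and at 56.5 and 163 CPM on plate 2. Its mSC-like sums were close together and its nm(R)SC-like sums were not, with a log2 ratio of −0.87 ± 0.48 (SE, 95% interval −1.95 to 0.21, edgeR adjusted p = 0.529). Within plates the log2 ratio was −0.54 and −1.51. On plate 2, 1 nm(R)SC-like cell held 29.4% of the Dnm2 reads and the sum without it was 118 CPM. Dnm2 shares 207 exon bases with Tmed1 on the opposite strand. Gdap1 had 3 reads in the whole table, in 3 different cells, so no ratio was formed.

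Shares of cells with a read were compared after each cell was thinned to 100000 reads, which left 98 and 71 mSC-like and 113 and 240 nm(R)SC-like cells of plates 1 and 2. At that depth, Sh3tc2 was read in 50 of 98 mSC-like cells of plate 1 (51.0%, exact 95% binomial interval 40.7 to 61.3) and in 18 of 71 on plate 2 (25.4%, 15.8 to 37.1). Among nm(R)SC-like cells the numbers were 22 of 113 on plate 1 (19.5%, 12.6 to 28.0) and 18 of 240 on plate 2 (7.5%, 4.51 to 11.6). The share in mSC-like cells was larger on each plate, by 31.6 and 17.9 percentage points, and the intervals of the classes did not meet within either plate. For comparison, the median share over 6 endothelial markers, genes that SCs should lack, was 0 to 0.885% in the 4 sums, and the highest share of a single one of them was 2.65% to 13.3%. On plate 2 that highest share among nm(R)SC-like cells was 5.42%, inside the interval of the Sh3tc2 share. Of 5 neuron markers, the highest share there was 13.8%, above the Sh3tc2 share of 7.5%. In the other sums the highest neuron share was 4.08% to 9.86%, below that of Sh3tc2. The difference in the mean share was 24.7 ± 9.69 percentage points for Sh3tc2 (SD, n = 2 plates), the largest of the 10 genes.

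The mean difference between classes was at most 14.4 percentage points for the other 9 genes. Ndrg1 was read in 100% and 98.6% of mSC-like cells of plates 1 and 2 and in 98.2% and 77.5% in the other class. Mtmr2 was read in 70.4% and 73.2% of mSC-like cells against 67.3% and 47.5%. For both genes the difference was small on plate 1, at 1.77 and 3.15 percentage points, and larger on plate 2, at 21.1 and 25.7 percentage points. Litaf was read in 71.4% and 60.6% of mSC-like cells against 79.6% and 55.4%, and Dnm2 in 50% and 35.2% against 56.6% and 29.6%. For these 2 genes the share was larger in nm(R)SC-like cells on plate 1 and in mSC-like cells on plate 2, so the higher summed level of Dnm2 in nm(R)SC-like cells on plate 2 did not go with a larger share of cells.

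Sbf2 was read in 46.9% and 14.1% of mSC-like cells of plates 1 and 2 against 31.9% and 12.5% for nm(R)SC-like, Fgd4 in 26.5% and 15.5% against 23.9% and 9.17%, and Sbf1 in 27.6% and 4.23% against 33.6% and 7.08%. Fig4 was read in 10.2% and 2.82% of mSC-like cells against 11.5% and 1.67%. The highest share of a single endothelial marker was 13.3% and 4.23% in mSC-like cells and 2.65% and 5.42% in the other class. The Fig4 shares other than the 11.5% and the mSC-like Sbf1 share of plate 2 were at or below it. The endothelial marker of highest level in mSC-like cells was Kdr, at 36.8 and 11.8 CPM there against 0.259 and 0 CPM in the other class. The median share over the 6 markers was 0 to 0.885%. For 5 neuron markers the highest share was 4.08% and 9.86% in mSC-like cells and 7.08% and 13.8% in the other class. For 6 markers of pericytes or smooth muscle it was 25.5% and 7.04% in mSC-like cells and 5.31% and 4.17% in the other class. On plate 2, the nm(R)SC-like shares of Sbf2, Fgd4 and Sbf1 lay below the 13.8%. On plate 1, the mSC-like shares of the same genes lay above the 25.5%. Whether the shares at or below a marker share are background was not tested. Gdap1 was read in 0 of 98, 0 of 71 and 0 of 113 cells, which allow shares of up to 3.06%, 4.23% and 2.65% as 3 counts of the total (exact 95% upper bounds 3.69%, 5.06% and 3.21%), and in 1 of 240. Every gene but Gdap1 and, in mSC-like cells, Mtmr2 was read in a smaller share of cells on plate 2 at the same number of reads, and plate 2 also had fewer genes per cell at this depth, with medians of 1767 in mSC-like and 1636.5 in nm(R)SC-like cells against 2925.5 and 3124 on plate 1. A median of 4.5 and 3 of the 10 genes was read per mSC-like cell of plates 1 and 2, and of 4 and 2 per nm(R)SC-like cell.

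**Figure D3:**
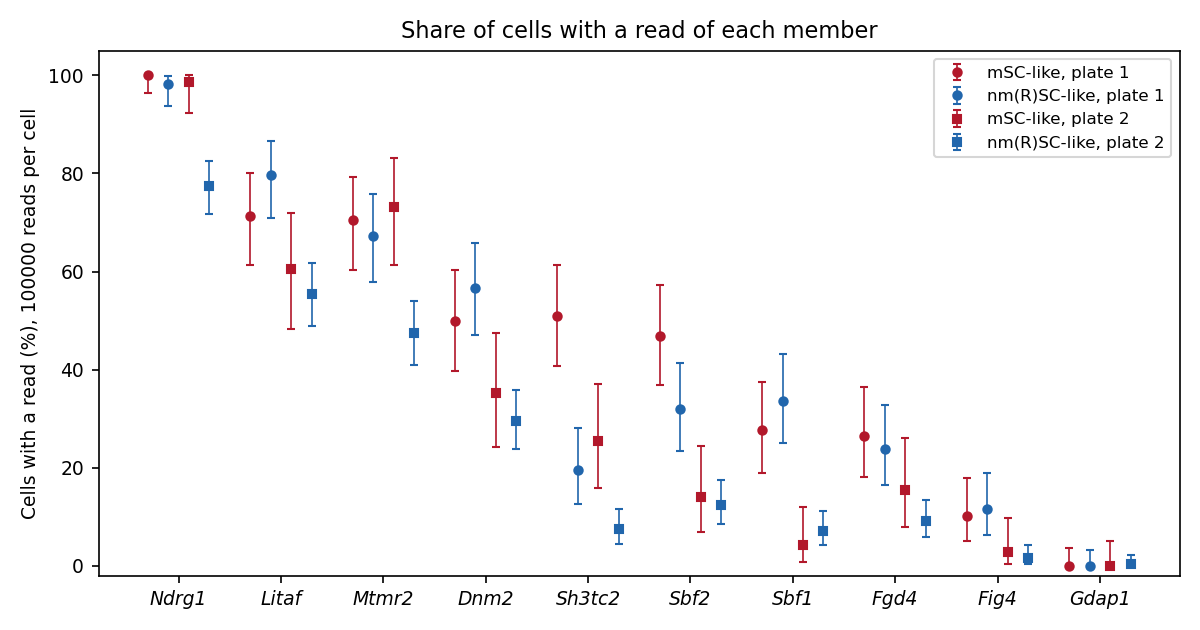
Share of cells with at least 1 read of each gene after thinning to 100000 reads per cell, in percent, by class and plate, with exact 95% binomial intervals. Sh3tc2 is the gene whose share is larger in mSC-like cells on each plate without overlap of the intervals, at 51.0% and 25.4% against 19.5% and 7.5%.

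The mSC-like class joined 2 clusters and the nm(R)SC-like class joined 3, built without the 10 genes. The mSC-like clusters were led by Emid1 and Ncmap (63 and 53 cells on plates 1 and 2) and by Mfap5 and Ogn (86 and 19 cells). Ndrg1 was read at 2795 and 2788 CPM in the Emid1 cluster and at 3374 and 2710 CPM in the Mfap5 cluster, above the 1077 to 1364 CPM of the 3 nm(R)SC-like clusters on both plates. Sh3tc2 was less even, with 82.5 and 141 CPM in the Emid1 cluster and 90.4 and 40.7 CPM in the Mfap5 cluster. The 40.7 CPM of plate 2 came to 97.3% from 1 cell, without which the level was 1.13 CPM. The nm(R)SC-like cluster led by Apoe and Scn7a stood at 47.6 CPM on that plate, with 83.8% of the reads in 1 cell and 7.94 CPM without it, so no order between the 2 clusters is read from these values. Litaf was higher in the Emid1 than in the Mfap5 cluster on both plates, at 358 and 592 CPM against 199 and 360 CPM, and Mtmr2 was too, at 168 and 222 CPM against 132 and 102 CPM. In the Mfap5 cluster of plate 2, the cell of most reads held 63% of the Litaf reads and, for Mtmr2, 54.1%, and without that cell the levels were 151 and 58.7 CPM. These within-class values are a description, without a test.

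Among nm(R)SC-like clusters, Dnm2 was read at 114 and 242 CPM in the cluster led by Apoe and Scn7a (157 CPM on plate 2 without the cell of most reads), at 60.0 and 121 CPM in the one led by Ednrb and Tagln2, and at 86.6 and 54.4 CPM in the one led by Apoe and Aldh1a1. The Aldh1a1 cluster on plate 2 and the Ednrb cluster on plate 1 lay within the range of the mSC-like clusters, 52.2 to 63.3 CPM, and the other values lay above it. Litaf was read at 404 and 743 CPM in the Ednrb cluster, 237 and 458 CPM in the Scn7a cluster and 370 and 436 CPM in the Aldh1a1 cluster. Mtmr2 was lowest of the 3 in the Aldh1a1 cluster on both plates, at 39.4 and 78.9 CPM. The unnamed cluster of 16 cells per plate had Ndrg1 at 626 and 1125 CPM, the second value from 1 cell with 99.2% of the reads, and Fig4 at 97.9 CPM on plate 1, of which 81.9% lay in 1 cell.

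**Figure D4:**
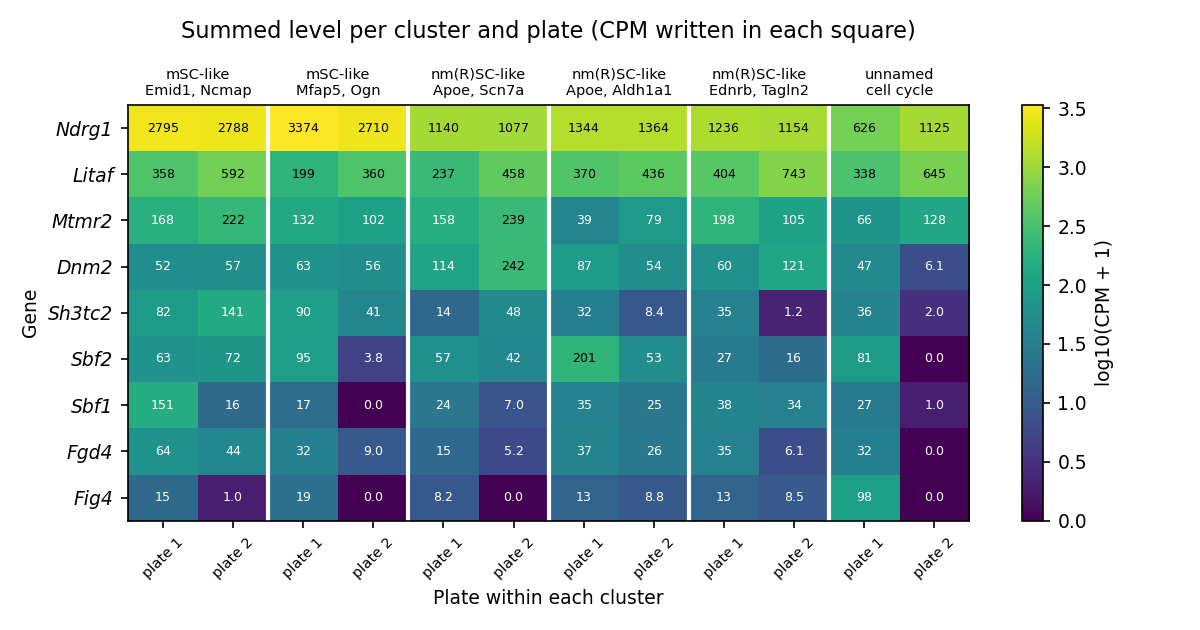
Summed level of 9 of the genes, without Gdap1, in each cluster and plate, colored by log10(CPM + 1) with the CPM written in each square. Ndrg1 is at 2710 to 3374 CPM in both mSC-like clusters on each plate and at 1077 to 1364 CPM in the 3 nm(R)SC-like clusters.

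Genes that act beside these 10 were counted from 6 lists. Of 20 phosphoinositide kinases and phosphatases 19 could be tested, and 0 passed (median log2 ratio −0.75). Mtmr3 and Mtmr4, which are myotubularins like Mtmr2, and the phosphatase Inpp5f had the largest ratios among those of at least 10 CPM, at −2.01, −1.56 and −1.57 with edgeR adjusted p of 0.813, 0.672 and 0.439. Inpp5f and Mtmr4 lay below in mSC-like cells on both plates, and Mtmr3 on plate 2 only. Of 30 genes of endosomal sorting and recycling 29 could be tested and 0 passed (median 0.20), with Rab4a, the small GTPase of fast recycling, at 1.87 (edgeR adjusted p = 0.552), Ehd3 at −1.72 (edgeR adjusted p = 0.770) and Ehd4 at 1.22 (edgeR adjusted p = 0.497). Ehd3 had opposite signs on plates 1 and 2 (0.32 and −3.7), while Rab4a and Ehd4 lay above in mSC-like cells on both. Of 23 genes of endocytosis and organelle fission 22 could be tested and 0 passed (median −0.06). Among those of at least 10 CPM, Sh3gl3 had the largest ratio at 1.58 (edgeR adjusted p = 0.763), with opposite signs on the plates (−0.30 and 2.91), followed by Bin1 at −1.58 (edgeR adjusted p = 0.557) and Dnm1l, the mitochondrial fission relative of Dnm2, at −1.43 (edgeR adjusted p = 0.678). DESeq2 called 1 gene of these 3 lists, Ocrl, at −5.45 (DESeq2 adjusted p = 0.0416), which was named after its value was seen. The mSC-like sums of Ocrl held 136 and 0 reads on plates 1 and 2, against 268 and 2400 in the other class. Its log2 ratio within plate 1 was −0.56, and the edgeR fit gave −5.12 ± 4.57 (SE, edgeR adjusted p = 0.782).

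Of the 14 paralogs and partners of the 10 genes 11 could be tested, with a median log2 ratio of −1.91, and 1 passed. That median was the value of Fgd1, −1.91 ± 3.03 (SE), from 182 and 1 mSC-like reads on plates 1 and 2. Of the 11, 7 reached 10 CPM in a class of both plates, so the median is no measure of the group. Ndrg2, a relative of Ndrg1, was lower in mSC-like cells. It was read at 162 CPM (mSC-like) and 737 CPM (nm(R)SC-like) on plate 1, and at 196 and 1860 CPM on plate 2, a log2 ratio of −2.55 ± 0.43 (SE, 95% interval −3.53 to −1.57, edgeR adjusted p = 0.0178). The 2 family members thus stood in opposite orders on both plates. Per length, Ndrg2 stood at 47.6 and 57.7 CPM per kb in mSC-like cells of plates 1 and 2 and at 217 and 548 CPM per kb in the other class, where Ndrg1 stood at 186 and 179 CPM per kb. The difference was also present in the median cell, at 11.6 and 1.13 CPM in mSC-like cells against 437 and 894 CPM (plates 1 and 2). At 100000 reads Ndrg2 was read in 64.3% (54.0 to 73.7) and 33.8% (23 to 46) of mSC-like cells against 87.6% (80.1 to 93.1) and 70% (63.8 to 75.7). The call was lost without the plate as a block (edgeR adjusted p = 0.105) and among cells with at least 2500 genes (edgeR adjusted p = 0.051). Fgd5 and Ndrg4 had ratios of −7.25 and −4.68 with edgeR adjusted p of 0.147 and 0.610. Both were called by DESeq2, with an adjusted p of 1.12e-05 and 0.0157, from sums of 6 and 2 Fgd5 reads and 183 and 3 Ndrg4 reads in mSC-like cells.

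**Figure D5:**
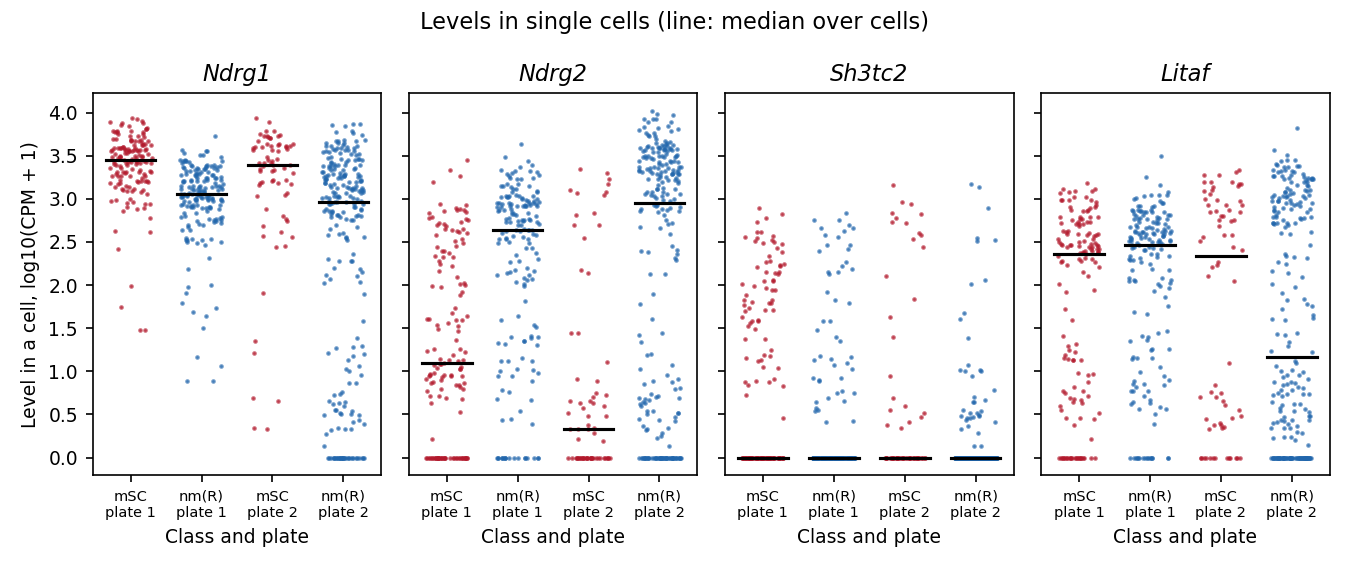
Levels in single cells of Ndrg1, Ndrg2, Sh3tc2 and Litaf as log10(CPM + 1), by class and plate, with 1 point per cell of a named class and a line at the median. The mSC-like medians lie above the nm(R)SC-like medians for Ndrg1 and below them for Ndrg2 on both plates, while the median cell had no read of Sh3tc2 in any of the 4 groups.

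Of 11 other genes of demyelinating or intermediate CMT that did not serve to name the classes, 10 could be tested (median 0.79) and 2 passed, of which Pmp2 is described here. Pmp2, a fatty acid binding protein of myelin, was read at 592 CPM (mSC-like) and 18.9 CPM (nm(R)SC-like) on plate 1 and at 374 and 6.32 CPM on plate 2, a log2 ratio of 5.59 ± 0.48 (SE, edgeR adjusted p = 0.0017). Its exons overlap those of Gm37389 on the same strand, so the reads of both genes may be shared. Fbln5, an extracellular matrix protein, had 1.51 ± 0.50 (SE, edgeR adjusted p = 0.214) and was called by DESeq2 at 1.55 (DESeq2 adjusted p = 0.0325). Of 18 genes of axonal CMT 17 could be tested and 0 passed (median 0.15), with Hspb1 at −1.91 (edgeR adjusted p = 0.552), Aars at 0.81 (edgeR adjusted p = 0.717) and Hars at −0.75 (edgeR adjusted p = 0.675).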

How the data were processed

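A single table of raw counts, reads per gene in each cell, was deposited by the authors for 25700 genes. Each column matched a cell by its title, 384 on each plate. The submitters' processing notes name bcl2fastq, STAR 2.6.1c, featureCounts and GRCm38.p5, while the study's methods name a human build. The table's identifiers are those of mouse genes, and 25664 were found in GENCODE M21 (GRCm38), which gave symbols, coordinates and lengths. The strand setting is not given in the sources used here. The members and lists were chosen with earlier results of these data known.

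The plates held 74280540 and 209404659 reads. Following the study, cells with at least 1500 genes were kept, the plates were integrated by canonical correlation (12 dimensions, Seurat 5.3.0, R 4.3.3) and cells were clustered at resolution 0.5. The classes were rebuilt here without the study's own cell annotation, from which they may differ. A cluster was named by the marker list with the higher level, with at least 3 markers at 50 CPM. It stayed unnamed where markers of the other list outnumbered its own among its 10 leading genes. It also stayed unnamed where the median of its reads, relative to the plate median, was below 0.333 and none of its own markers was leading. The 10 genes and the 6 lists were left out of the clusterings behind the values given, and only an alternative built classes from all genes. The other genes were split at random in 2 parts, each tested in classes built from the other part, which matched in 96.9% of 642 and 94.5% of 639 cells, and the 20 naming markers were not tested. Doublets were not called, because wells received single cells.

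Counts were summed per plate and class (4 sums) and tested with edgeR 4.0.16 (quasi-likelihood, TMM, filterByExpr with a minimum count of 10, Benjamini-Hochberg over all genes, limit 0.05). The plate was the block, since both classes of a plate came from the same mice. Alternatives were DESeq2 1.42.0, no block, other size factors, filters, clusterings and depths. Standard errors follow from the ratio and its F statistic. Beside the 10 genes, the text names of each list every gene called and, where fewer than 3 were called, further genes by the largest ratio among those with 10 CPM or more in a class of both plates. A called gene of the lists is not reported here. The fit was tested on simulated data. No sequences are shown.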

Additional observations from a re-analysis of the deposited data

How the results depend on the processing

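edgeR with the plate as a block called 399 genes, 0 of the 10 genes and 3 genes of the lists. DESeq2 called 1726, 2 and 7. With no replicate block the counts were 170 genes and 1 gene of the lists, and with cells of at least 2500 genes 213 genes were called. Without integration 1 of the 10 genes was called. Of the 126 alternative log2 ratios of the 9 genes, 8 had the opposite sign. These were Litaf with thinned cells (−0.0835), Sbf1 with thinned cells (−0.49) and without the top cell of each sum (−1.14), and Fig4 with no replicate block (0.34) and with thinned cells (0.14). In single plates the ratios ran from −0.35 to 0.0649 for Litaf, from −0.57 to 1.13 for Sbf1 and from −1.63 to 0.59 for Fig4. The cause was not tested. The signs of Sh3tc2, Ndrg1, Fgd4, Mtmr2, Sbf2 and Dnm2 held in every alternative run. The median difference in the share of cells was 2.20 percentage points over the 10 genes, and 0.885 to 5.39 in single plates. With 2 plates and 1 residual degree of freedom, differences of 2 on the log2 scale were mostly missed in simulated sums, and reads of genes below about 100 CPM rest on few cells.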
